A study of Mus musculus with 20 samples.

Results

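The genes described here are 10 regulators and markers of the epithelial-mesenchymal transition, chosen by name: the transcription factors Zeb1, Zeb2, Snai1, Snai2, Twist1 and Twist2, the cadherins Cdh1 and Cdh2, and Vim and Fn1. Of the 10 genes, 9 had a row among the 15465 genes with values in the BC tumour model, and 8 of those were among the 14003 genes that passed the filter on low values. Cdh2 had a row but stayed below the filter, and Zeb1 was not analysed here. RNA sequencing was done on bulk tissue of 4 lung metastases and 4 primary tumours, taken from the same 4 mice of an orthotopic model. Both groups carry the genotype label 4T1 derived and the time label 28 days. The 4T1 line is a mouse mammary carcinoma cell line, so all 8 tumours trace back to 1 line, and the strain, sex and age of the host mice were not given in the sources used here. The other 12 libraries of the series, from a PDAC model, were not used because their values do not follow the gene column.

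In the epithelial-mesenchymal transition, epithelial cells loosen their junctions and take on a motile, mesenchymal form. Snail, Twist and Zeb factors drive it: they bind E-box DNA and repress Cdh1, which encodes E-cadherin, the adhesion protein of epithelial junctions, while N-cadherin, vimentin and fibronectin mark the mesenchymal state. Fibroblasts, endothelial cells and leukocytes also make several of these RNAs, and bulk tissue pools them with the carcinoma cells. In such tissue, fewer cells of a type and less RNA per cell cannot be told apart.

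E-box binding makes the start sites of the factors themselves of interest, since Snail and Twist genes are also targets in the same network. Promoter windows of 250 bases upstream of the start site were found for 5 of the 10 genes in RefSeq (build GRCm38.p6): Zeb2 with 4 start sites, Snai1, Twist1, Twist2 and Vim. Shown here are the windows of Snai1, of Twist1 and of Twist2, whose levels are compared below, each on the + strand and written 5′ to 3′ in lower case, with any CANNTG in capitals. The window of Snai1 is chr2:167537945-167538194, that of Twist1 is chr12:33957421-33957670 and that of Twist2 is chr1:91801211-91801460.
Snai1: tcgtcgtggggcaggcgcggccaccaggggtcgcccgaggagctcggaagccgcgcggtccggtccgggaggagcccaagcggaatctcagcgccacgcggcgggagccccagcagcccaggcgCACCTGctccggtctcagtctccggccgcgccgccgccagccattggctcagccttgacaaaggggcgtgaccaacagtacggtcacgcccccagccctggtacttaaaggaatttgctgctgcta
Twist1: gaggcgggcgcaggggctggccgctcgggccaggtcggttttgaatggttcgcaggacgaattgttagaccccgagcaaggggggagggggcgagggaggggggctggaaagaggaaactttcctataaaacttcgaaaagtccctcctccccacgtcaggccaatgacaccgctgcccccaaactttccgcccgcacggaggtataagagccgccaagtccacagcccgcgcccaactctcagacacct
Twist2: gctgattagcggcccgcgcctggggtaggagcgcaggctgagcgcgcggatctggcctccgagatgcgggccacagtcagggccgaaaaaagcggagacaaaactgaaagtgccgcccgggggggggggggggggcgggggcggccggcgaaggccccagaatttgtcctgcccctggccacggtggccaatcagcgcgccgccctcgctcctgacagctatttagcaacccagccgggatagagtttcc
The motif CANNTG, where N is any base and which reads the same in form on both strands, occurred once among these windows, as CACCTG at position -126 from the Snai1 start site. CACCTG and its reverse complement CAGGTG are the core bound by Snail and Zeb factors. The windows of Twist1, Twist2, Vim and all 4 Zeb2 start sites held no CANNTG. Of 32851 promoter windows of the same length, 66.2% held a CANNTG and 17.2% held CAGGTG or CACCTG. A match describes letters in the window and is not a measured binding site.

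The deposited values are normalised read counts, that is, gene reads divided by a scaled library size. Depth was 15447918 to 28995834 reads per library, lowest in the lung metastasis of mouse 3, and 1 read was worth 0.0337 to 0.0676 in these units. Of the keratins listed as carcinoma epithelium markers, Krt8, Krt18, Krt19, Krt7 and Krt14 reached a value of 1 in all 8 libraries, and Krt5 in 5. Krt8 was at 225 to 1462 in lung metastases against 531 to 1321 in primary tumours. The 7 markers of that list summed to 819 to 3284 in lung metastases against 1367 to 2770 in primary tumours, with 1 of 7 called (Krt19, higher). Means of Krt19, Krt7 and Krt14 were higher in lung metastases, and those of Krt8, Krt18, Krt5 and Epcam were lower. The list thus did not move together, and the part of lung epithelium in its sum was not tested. Lung epithelium markers, such as the surfactant gene Sftpc, summed to 7479 to 34158 in lung metastases against 96.3 to 112 in primary tumours, with 9 of 10 called higher. Abca3, the marker not called, made up most of the primary tumour sum, at 87.8 to 99.2 there. The lung metastasis of mouse 3 had the highest lung epithelium sum and the lowest carcinoma epithelium sum of its group, so the change of each transition gene is also given without it. Neutrophil markers summed to 6802 to 25041 in lung metastases against 182 to 1025 in primary tumours (6 of 6 called higher). Mesothelium markers summed to 175 to 505 in lung metastases against 55 to 143 in primary tumours (6 of 6 called higher). In primary tumours the mesothelium sum was almost all Msln, at 54.8 to 143, and Nkain4 was at 0 in every primary tumour. Endothelium markers summed to 460 to 2119 in lung metastases against 145 to 718 in primary tumours (4 of 8 called higher). Fibroblast markers summed to 1318 to 2440 in lung metastases against 805 to 2621 in primary tumours (1 of 9 called higher, 3 lower), pericyte markers to 42.2 to 138 in lung metastases against 89 to 292 in primary tumours (2 of 6 called lower), and macrophage markers to 738 to 2083 in lung metastases against 1580 to 3508 in primary tumours (1 of 9 called lower). T and NK cell markers summed to 19.4 to 56.2 in lung metastases against 3 to 16 in primary tumours (1 of 6 called higher). Adipocyte markers, of which 3 of 4 had a row, summed to at most 6.63 in lung metastases and 28.4 in primary tumours. Of the 4 skeletal muscle markers only Mylpf had a row, at up to 1.42 in lung metastases and 3.34 in primary tumours. That list therefore says little about muscle.

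Lung metastases were compared with primary tumours by limma on log2(value + 1), and a gene was called at a Benjamini-Hochberg adjusted p under 0.05 over all 14003 genes. Of the 8 transition genes tested, 1 was called, Twist2, which was lower in lung metastases, against 9.13% of all tested genes called in either direction, 7.18% higher and 1.96% lower. Twist1, Twist2 and Fn1 had groups that did not overlap, all 3 lower in lung metastases, against 7.56% of tested genes with groups that lay apart in that direction. None of the 8 lay wholly higher, against 10.4% of tested genes. The median log2 change of the 8 genes was -0.35, with 6 below 0 and 2 above, while the median of all tested genes was -0.0553, with 54.9% below 0. A single call among 8 genes is near the share of all genes called in either direction. Twist2 met the filter through the primary tumours, where it is high, so its call and its gap are descriptive.

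**Figure D1:**
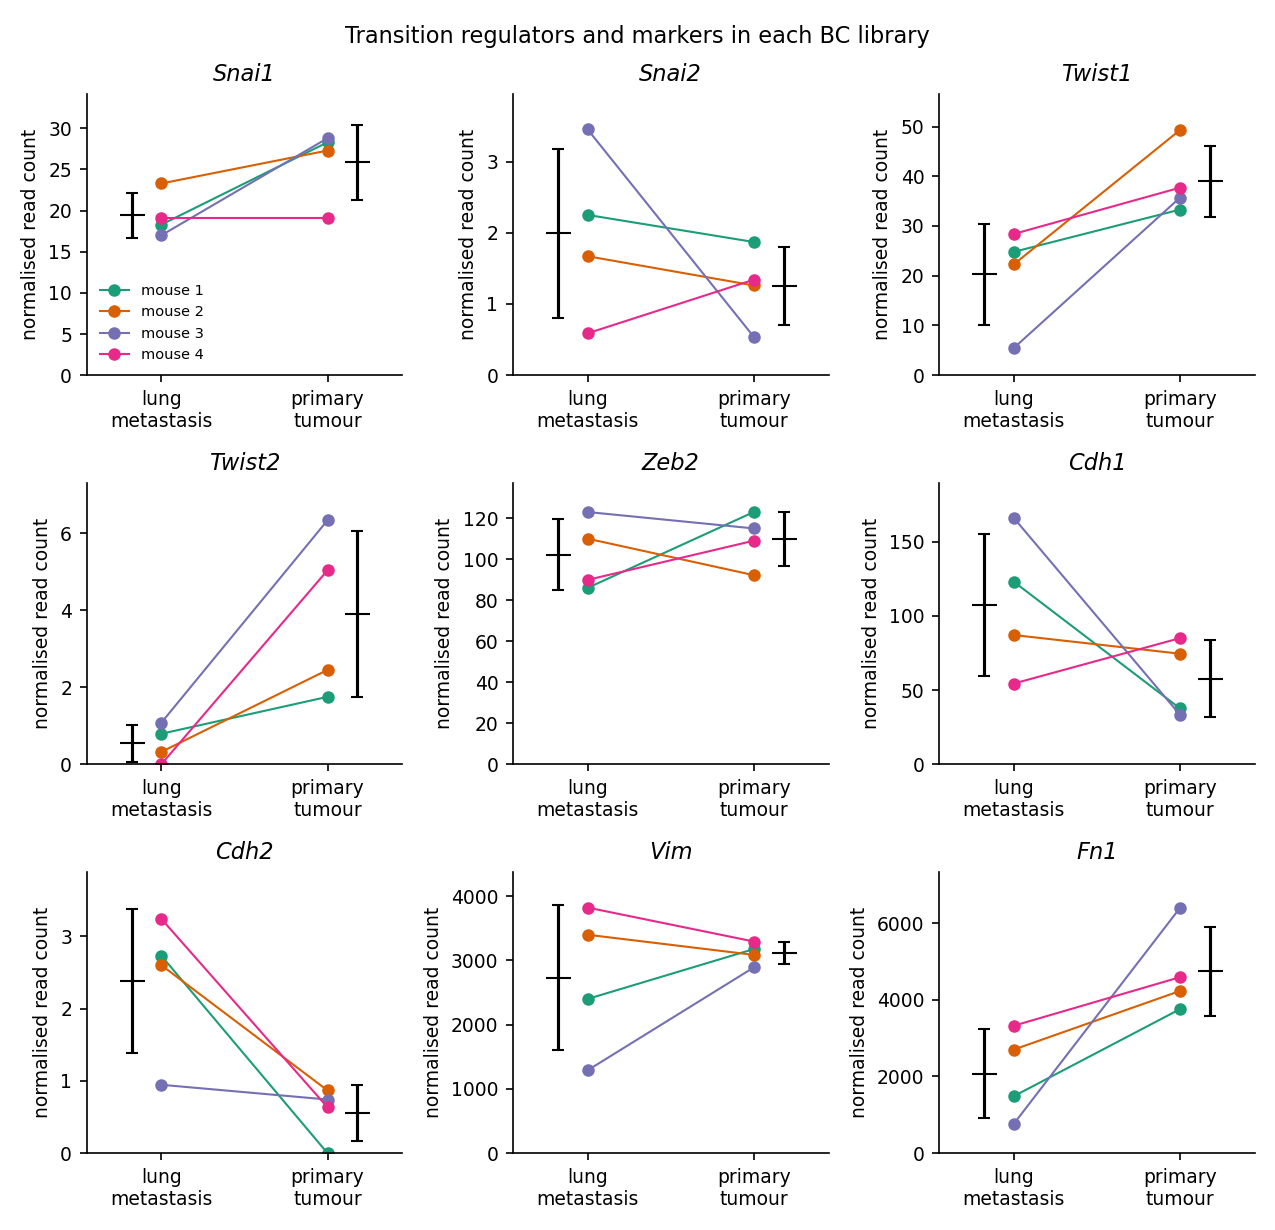
Normalised read counts (vertical axes, each starting at 0) of 9 transition genes in the lung metastasis and the primary tumour of mice 1 to 4, with a line joining the tumours of each mouse and black bars for the mean ± SD of each group of 4. Twist1, Twist2 and Fn1 lie lower in all 4 lung metastases than in any primary tumour, Cdh2 lies higher in all 4, and the other 5 genes overlap.

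Both Twist factors were lower in all 4 lung metastases than in any primary tumour, and Twist2 passed the test. Twist2 encodes a basic helix-loop-helix factor known from mesenchymal and connective tissue cells. It had 0.791, 0.32, 1.08 and 0 normalised reads in the lung metastases of mice 1 to 4, against 1.75, 2.45, 6.34 and 5.04 in the primary tumours. Every primary tumour was above every lung metastasis, and the 2 values nearest each other were 1.08 in the lung metastasis of mouse 3 and 1.75 in the primary tumour of mouse 1. Twist2 averaged 0.5481 ± 0.482 in lung metastases and 3.892 ± 2.16 in primary tumours (SD, n = 4 each), a ratio of 0.141. On the log2(value + 1) scale, which understates changes of low genes, it fell by 1.60 in lung metastases (SE 0.405, 95% interval -2.50 to -0.71, limma adjusted p = 0.0329), and without the lung metastasis of mouse 3 by 1.76 (adjusted p = 0.0259). These levels rest on 45 reads over the 4 lung metastases and 437 over the 4 primary tumours. The lung metastasis of mouse 4 held 0 Twist2 reads, and a count of 0 allows a level of up to 0.126 there (3 reads, counting error only). Twist2 passed the filter through 5 libraries, 1 lung metastasis and all 4 primary tumours. The 4 primary tumours, the group where it is high, met the filter alone. Its call and its gap between the groups in that test therefore describe it and support nothing further. In the fit of all 15465 genes with no filter the log2 change was -1.60 (limma adjusted p = 0.0324). The call was lost with the mouse as a replicate block (adjusted p = 0.0544), in edgeR on the recovered reads (0.132), with a pseudocount of 0.1 (0.0578) or 5 (0.0543), and when the lung metastasis of mouse 1 (0.0785), 2 (0.0984) or 4 (0.0684) or the primary tumour of mouse 3 (0.107) or 4 (0.116) was left out. Over the 17 alternatives in which Twist2 could be tested, it stayed lower in all 17 and was called in 8.

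Twist1 encodes the related factor that 4T1 cells are known to need for spread to the lung in transplanted mice. It had 24.8, 22.3, 5.48 and 28.4 normalised reads in the lung metastases of mice 1 to 4, and 33.3, 49.3, 35.7 and 37.7 in the primary tumours. No lung metastasis reached the lowest primary tumour, and the lung metastasis of mouse 3 lay far under the other 3 of its group. Means were 20.25 ± 10.2 in lung metastases and 38.99 ± 7.08 in primary tumours (SD, n = 4 each), a ratio of 0.519. The log2 change was -1.10 (SE 0.428, 95% interval -2.05 to -0.16), with an unadjusted p of 0.0265 and a limma adjusted p of 0.15, so the gene was not called. Without the lung metastasis of mouse 3 the log2 change was -0.60, with an adjusted p of 0.0719. None of 18 alternatives called Twist1, with adjusted p between 0.0512 and 0.285.

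The 2 Snail factors did not pass the test and pointed in different directions. Snai1, the zinc-finger repressor best known for shutting off Cdh1, had 18.3, 23.3, 17 and 19.1 normalised reads in the lung metastases of mice 1 to 4, and 28.3, 27.3, 28.8 and 19.1 in the primary tumours. The groups overlapped through the primary tumour of mouse 4, which lay well under the other 3 primary tumours. Snai1 averaged 19.41 ± 2.74 in lung metastases and 25.86 ± 4.57 in primary tumours (SD, n = 4 each). Its log2 change was -0.39 (SE 0.213, 95% interval -0.86 to 0.09, limma adjusted p = 0.311), and -0.33 without the lung metastasis of mouse 3. Snai2, or Slug, the Snail relative prominent in neural crest and basal epithelium, had 2.25, 1.67, 3.45 and 0.588 in the lung metastases of mice 1 to 4, and 1.87, 1.26, 0.539 and 1.34 in the primary tumours. Its values were low and intermixed, resting on 169 reads over the lung metastases and 133 over the primary tumours. The log2 change of Snai2 was 0.35 (SE 0.38, 95% interval -0.49 to 1.19, limma adjusted p = 0.62), and its size moved with single libraries: 0.13 without the lung metastasis of mouse 3, 0.62 without that of mouse 4 and 0.18 without the primary tumour of mouse 3. On the recovered reads it was 0.69 in edgeR and 0.72 in DESeq2, and 0 of 17 alternatives called it.

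Zeb2 encodes a zinc-finger and homeodomain repressor that macrophages and other leukocytes also express. It had 86, 110, 123 and 89.9 normalised reads in the lung metastases of mice 1 to 4, and 123, 92.2, 115 and 109 in the primary tumours. The groups overlapped over most of their range. Zeb2 averaged 102.1 ± 17.3 in lung metastases and 109.9 ± 13 in primary tumours (SD, n = 4 each), with a log2 change of -0.11 (SE 0.171, limma adjusted p = 0.73). Its 95% interval, -0.49 to 0.27, was the narrowest of the transition genes tested, and the log2 change lay between -0.21 and -0.04 under all 18 alternatives, and was -0.21 without the lung metastasis of mouse 3.

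**Figure D2:**
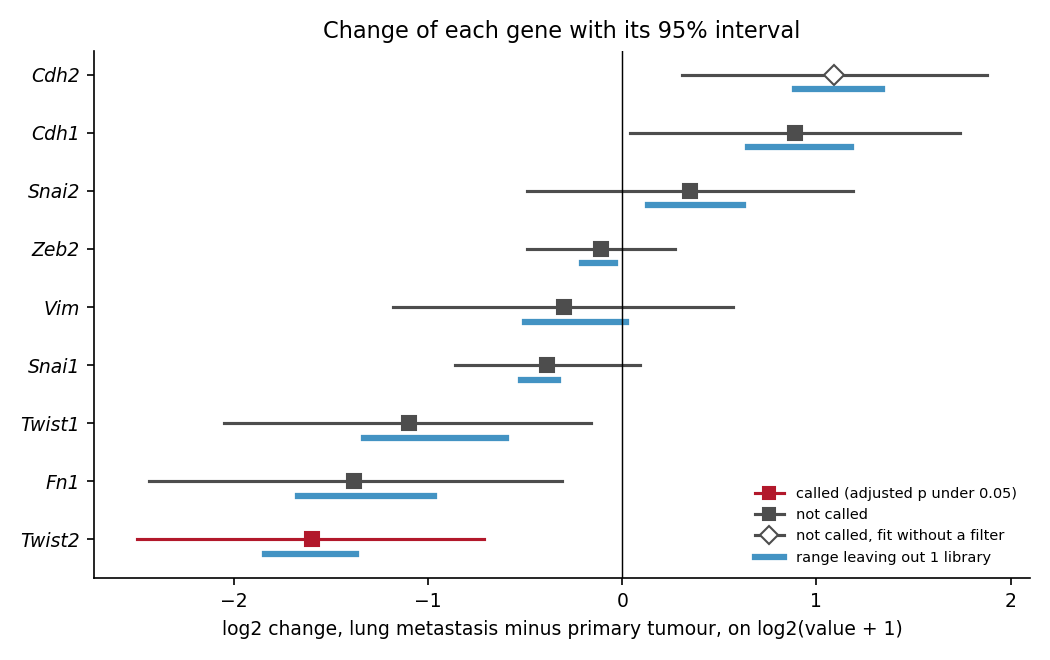
Log2 change on log2(value + 1), lung metastasis minus primary tumour (horizontal axis), of 9 transition genes, with thin lines for 95% intervals and thick blue lines for the range when each library was left out in turn. Twist2, at -1.60, is the only gene called (red), Cdh2 (open diamond, 1.09) comes from the fit with no filter, and the Vim range reaches 0.02.

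The 2 cadherins both had higher means in the metastases. Cdh1, or E-cadherin, had 123, 87.1, 166 and 54.4 normalised reads in the lung metastases of mice 1 to 4, and 37.6, 74.5, 33.3 and 85 in the primary tumours. The groups overlapped: the lung metastases of mice 1, 2 and 3 lay above every primary tumour, and that of mouse 4 lay under 2 of them. Means were 107.6 ± 47.8 in lung metastases and 57.57 ± 26 in primary tumours (SD, n = 4 each), a ratio of 1.87. The log2 change was 0.89 (SE 0.386, 95% interval 0.04 to 1.74), with an unadjusted p of 0.0427 and a limma adjusted p of 0.199, and 0 of 18 alternatives called it (adjusted p 0.0777 to 0.405). Without the lung metastasis of mouse 3 it was 0.65 (adjusted p = 0.314). Among the lung metastases the order of Cdh1 from high to low was mouse 3, 1, 2 and 4. The summed lung epithelium, pericyte and endothelium markers had the same order, and so did the adipocyte and skeletal muscle lists, Snai2 and Twist2. In mice 1 and 3 most of the lung epithelium sum was Scgb1a1, at 13234, 2144, 21013 and 3148 in the lung metastases of mice 1 to 4. Most other genes of that list ran in another order, such as Sftpc at 3957, 5014, 8152 and 3014. The carcinoma epithelium sum ran in the order of mouse 4, 2, 1 and 3, as did Krt8 and Krt18, which made up most of it. Krt19, Krt7, Epcam, Krt5 and Krt14 ran in other orders. Lung epithelium is itself rich in E-cadherin, and its part in the Cdh1 level was not tested.

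Cdh2, or N-cadherin, was rare in every library. It had 2.73, 2.6, 0.946 and 3.24 normalised reads in the lung metastases of mice 1 to 4, and 0, 0.868, 0.742 and 0.634 in the primary tumours. Each lung metastasis lay above all 4 primary tumours, with that of mouse 3 only just above the highest of them, 0.868. The means were 2.377 ± 0.992 in lung metastases and 0.5609 ± 0.386 in primary tumours (SD, n = 4 each), from 233 reads in lung metastases and 62 in primary tumours. The primary tumour of mouse 1 held 0 reads, which allows a level of up to 0.119 there. Since 3 libraries reached a value of 1, all of them lung metastases, Cdh2 was outside the main test. In a limma fit of all 15465 genes with no filter, its log2 change was 1.09 (SE 0.357, 95% interval 0.31 to 1.88, adjusted p = 0.0882), where 8.68% of genes were called and 10.7% lay wholly higher in lung metastases. Without the lung metastasis of mouse 3 the change was 1.34 and was called (adjusted p = 0.0242). On the recovered reads with no filter the log2 change was 2.08 in edgeR (adjusted p = 0.281) and 2.11 in DESeq2 (adjusted p = 0.132).

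Of the 2 genes for mesenchymal proteins, Fn1 and Vim, neither was called in the main test. Fn1 encodes fibronectin, a matrix glycoprotein made by fibroblasts, macrophages and mesenchymal carcinoma cells. It had 1487, 2702, 769 and 3324 normalised reads in the lung metastases of mice 1 to 4, and 3756, 4230, 6396 and 4589 in the primary tumours. Every lung metastasis was under the lowest primary tumour, and mouse 3 had both the lowest lung metastasis and the highest primary tumour. Fn1 averaged 2070 ± 1155 in lung metastases and 4743 ± 1154 in primary tumours (SD, n = 4 each), a ratio of 0.437. Its log2 change was -1.38 (SE 0.481, 95% interval -2.44 to -0.31), with an unadjusted p of 0.0163 and a limma adjusted p of 0.114. The call depended on the setting: Fn1 passed with limma array weights (adjusted p = 0.0156) and in DESeq2 (0.0289) and did not pass in the other 16 of 18 alternatives, and without the lung metastasis of mouse 3 the log2 change was -0.97 (adjusted p = 0.0831). Beside it, fibroblast and macrophage marker sums overlapped between the groups, at the levels given above, and their part in the Fn1 level was not tested.

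Vim encodes vimentin, the intermediate filament protein of mesenchymal cells. It had 2400, 3399, 1290 and 3822 normalised reads in the lung metastases of mice 1 to 4, and 3176, 3086, 2890 and 3294 in the primary tumours. The primary tumours lay close together and the lung metastases spread to both sides of them. Vim averaged 2727 ± 1129 in lung metastases and 3112 ± 171 in primary tumours (SD, n = 4 each), with a log2 change of -0.30 (SE 0.396, 95% interval -1.18 to 0.57, limma adjusted p = 0.683). Without the lung metastasis of mouse 3 the change was 0.02 (adjusted p = 0.974). In the lung metastases, Vim and Fn1 shared the order of mouse 4, 2, 1 and 3. That is also the order of the carcinoma epithelium sum and of Krt8 and Krt18, but not of the other genes of that list.

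Ratios within a library set the mesenchymal genes against Cdh1, with log2(value + 1) taken for both genes. Library scaling therefore cancels only for values well above 1, which leaves out Cdh2. The log2 ratio of Vim to Cdh1 was 4.27, 5.27, 2.95 and 6.11 in the lung metastases of mice 1 to 4, and 6.36, 5.35, 6.40 and 5.26 in the primary tumours. It was lower in the lung metastases of mice 1, 2 and 3 and higher in that of mouse 4, with means of 4.65 ± 1.36 in lung metastases and 5.84 ± 0.621 in primary tumours (SD, n = 4 each). The log2 ratio of Fn1 to Cdh1 was 3.58, 4.94, 2.21 and 5.91 in lung metastases, and 6.61, 5.81, 7.54 and 5.74 in primary tumours. The groups overlapped only through mouse 4, and the mean difference was -2.27. The log2 ratio of Cdh2 to Cdh1 was -5.06, -4.61, -6.42 and -3.71 in lung metastases, and -5.27, -5.34, -4.30 and -5.72 in primary tumours. That ratio overlapped and differed on average by 0.20. The difference was 1.30 with a pseudocount of 0.1 and changed sign with a pseudocount of 5, at -0.44, so it rests largely on the pseudocount. The primary tumour of mouse 1 held 0 Cdh2 reads, so its -5.27 reflects only the pseudocount and Cdh1. These ratios were not tested, because the genes were chosen with results known.

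Taken mouse by mouse, the difference between the 2 tumours was largest in mouse 3 for 6 of the 9 genes. Its lung metastasis differed from its primary tumour by a log2 value of -3.05 for Fn1, -2.50 for Twist1, -1.16 for Vim, -0.73 for Snai1, 2.28 for Cdh1 and 1.53 for Snai2. Mouse 4 differed least in Fn1 (-0.47) and Twist1 (-0.40) and had the opposite sign in Cdh1 (-0.63) and Snai2 (-0.56), yet it had the largest Twist2 difference (-2.59). Twist2 and Cdh2 thus did not share the mouse 3 pattern: Cdh2 differed by 0.16 in mouse 3 and by 1.90, 0.95 and 1.37 in mice 1, 2 and 4. Of the 9 genes, 4 kept 1 sign in all 4 mice: Twist1, Twist2 and Fn1 lower, and Cdh2 higher. These are the genes whose groups lay apart, so any pairing of the libraries would give them 1 sign. The pairing adds nothing to that gap. Mouse 3 also had the largest difference in the lung epithelium sum, 8.25 on this scale, and mouse 4 the smallest, 6.26, while the carcinoma epithelium sum differed by -1.47 in mouse 3 and 0.42 in mouse 4. In primary tumours, most of that lung epithelium sum was Abca3. The part of this tissue mix in the mouse 3 values was not tested.

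The genes whose log2 values ran most like a transition gene over the 8 libraries are given as a description, with Pearson's r over points that share library depth and tissue mix. For Twist1 they were Gas5 (r = 0.996), Rabepk (0.992) and Fam3c (0.991). Those closest to Twist2 were Prom2 (r = 0.990), Gyltl1b (0.984) and Nfat5 (0.968). Prom2 (log2 change -2.54, limma adjusted p = 0.0156) and Gyltl1b (-1.12, adjusted p = 0.0407) were called. Both were picked for running like Twist2 over these same 8 libraries, so their calls are no separate support. Fn1 was followed by Sh3pxd2b (r = 0.987), Arl6 (0.987) and Pcgf3 (0.986), and Cdh2 by Dusp14 (0.956), Oxnad1 (0.948) and Cmtm8 (0.944). No gene stood on more than 1 of these 4 lists.

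Partner genes of the transition, 53 listed by role, had a row for 50, and 49 passed the filter: 2 were called higher and 2 lower, with a median log2 change of -0.23. These 4 of 49 are near the 9.13% of all tested genes called, and the single calls by role that follow are not set apart from it. The 6 tested transition factors beyond the 10 genes all had a negative log2 change (median -0.61), and 1 of them was called. That gene was Sox4, a factor that TGF-beta induces during the transition in mouse mammary cells. Sox4 had 72.2, 83.4, 47.5 and 126 normalised reads in the lung metastases of mice 1 to 4, and 193, 210, 168 and 195 in the primary tumours. The groups lay well apart, and Sox4 fell by 1.29 on the log2 scale in lung metastases (SE 0.258, limma adjusted p = 0.0111). It was called in all 18 alternatives, with adjusted p from 0.000257 to 0.0499, and its log2 change was -1.06 without the lung metastasis of mouse 3. Its order in the lung metastases, mouse 4, 2, 1 and 3, was that of the carcinoma epithelium sum and of Krt8 and Krt18. The other genes of that list ran in other orders, and the part of carcinoma cells in the Sox4 level was not tested.

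The factors that hold the epithelial state gave 1 call among 7 tested, with a median log2 change of 0.36. Elf5, an Ets factor of luminal mammary and lung epithelium, had 7.47, 6.37, 20.1 and 3.49 normalised reads in the lung metastases of mice 1 to 4, and 0.397, 0, 0.742 and 0 in the primary tumours. All 4 lung metastases lay above all 4 primary tumours. Elf5 passed the filter only through the lung metastases, the group where it is high, so its call and its gap between the groups in that test (log2 change 2.81, SE 0.46, limma adjusted p = 0.00373) describe it and support nothing further. In the fit of all 15465 genes with no filter the log2 change was 2.81 (limma adjusted p = 0.00362), and 2 primary tumours held 0 reads, which allows levels of up to 0.118 in mouse 2 and 0.106 in mouse 4. Its order in the lung metastases, mouse 3, 1, 2 and 4, was that of the summed lung epithelium, pericyte and endothelium markers. Most single lung epithelium genes ran in another order, such as Sftpc in that of mouse 3, 2, 1 and 4. The part of these cells in the Elf5 level was not tested.

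In the cadherin complex, with the catenins and other cadherins, 1 of 6 tested genes was called (median 0.26). Cdh11, a cadherin of mesenchymal cells, had 27.2, 57.7, 34.3 and 26.1 normalised reads in the lung metastases of mice 1 to 4, and 10.3, 2.33, 18.3 and 10.5 in the primary tumours. No values overlapped, and Cdh11 rose by a log2 change of 1.89 (SE 0.488, limma adjusted p = 0.0361). The call was lost with the replicate block (adjusted p = 0.0671), in edgeR (0.0678) and without the lung metastasis of mouse 1 (0.0839) or 2 (0.116) or the primary tumour of mouse 1 (0.0791) or 4 (0.0823).

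TGF-beta signalling, the classic inducer of the transition, had 1 call among 8 tested genes and a median of -0.23. Tgfb3, a ligand, had 51.7, 66.6, 47.5 and 59.7 normalised reads in the lung metastases of mice 1 to 4, and 69.6, 112, 120 and 103 in the primary tumours. Every lung metastasis was lower than every primary tumour, with the nearest pair at 66.6 and 69.6, and Tgfb3 fell by 0.82 on the log2 scale in lung metastases (SE 0.203, limma adjusted p = 0.0308). The call was lost without the lung metastasis of mouse 1 (0.105) or 2 (0.0523) or the primary tumour of mouse 2 (0.0825), 3 (0.107) or 4 (0.102).

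The other 4 roles held no called gene. Among the basic helix-loop-helix partners and Id inhibitors (6 tested, median -0.01), Id1, which sequesters the E proteins that Twist factors pair with, had the smallest p. It had 105, 78.3, 64.1 and 76.2 normalised reads in the lung metastases of mice 1 to 4, and 36.9, 69.6, 45.6 and 38.3 in the primary tumours. The groups overlapped through the primary tumour of mouse 2, and the log2 change was 0.78 (limma adjusted p = 0.0672). Id1 was called without that tumour (adjusted p = 0.0223), without the lung metastasis of mouse 3 (0.0339), with array weights (0.00366) and in DESeq2 (0.0241).

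All 6 corepressors had a negative log2 change, with a median of -0.28. Kdm1a, a histone demethylase that Snai1 recruits, had 115, 112, 71.8 and 147 normalised reads in the lung metastases of mice 1 to 4, and 165, 146, 176 and 159 in the primary tumours. It overlapped only through the lung metastasis of mouse 4 and the primary tumour of mouse 2, and its log2 change was -0.57 (limma adjusted p = 0.131, called with array weights at 0.0239), and -0.38 without the lung metastasis of mouse 3. Regulators of Snail protein turnover (5 tested) had a median of 0.00, and Fbxo11, a ubiquitin ligase subunit that targets Snail, had 66.3 to 86.9 in lung metastases against 89.4 to 110 in primary tumours, with a log2 change of -0.34 (adjusted p = 0.216). Fibronectin receptors (5 integrin genes, median -0.34) included Itga4, a subunit carried by leukocytes, with 23, 27.1, 115 and 17 in the lung metastases of mice 1 to 4, and 13.7, 9.23, 21.3 and 11 in the primary tumours. Its lung metastasis of mouse 3 lay far above the rest, and the log2 change was 1.28 (adjusted p = 0.17, called in DESeq2 at 0.0233). Without that library it was 0.70 (adjusted p = 0.182).

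**Figure D3:**
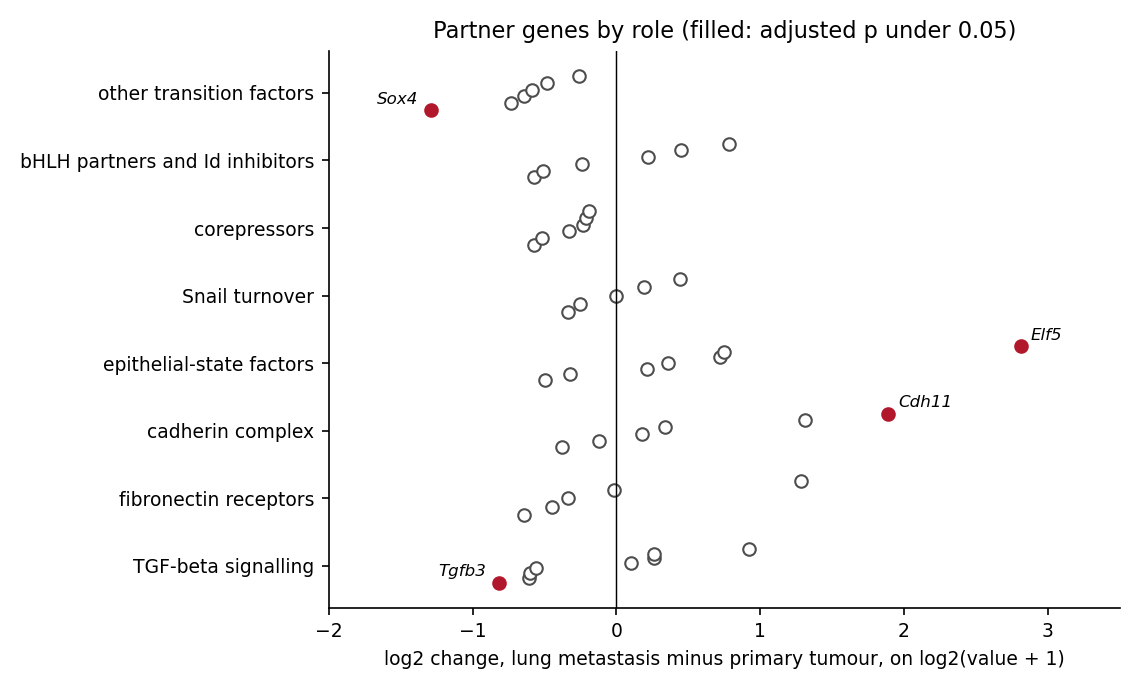
Log2 change on log2(value + 1), lung metastasis minus primary tumour (horizontal axis), of the 49 tested partner genes, 1 point a gene, in 8 roles (rows), with filled red points for genes called by limma. Sox4 (-1.29) and Tgfb3 (-0.82) are lower, Elf5 (2.81) and Cdh11 (1.89) are higher, and all 6 corepressors lie left of 0.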

How the data were processed

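Libraries were TruSeq libraries of RNeasy-extracted tumour RNA, per the labels' protocols, and whether reads were counted by strand was not given in the sources used here. Signal values in 1 table were deposited by the authors: gene reads divided by a scaled library size (column totals 962401 to 1044330, so not the CPM the design had assumed). Per the submitters' processing notes the build was mm9; the aligner, the counter and the gene models were not given in the sources used here. All values (100%) were whole multiples of 1 read within a tolerance of 0.05 reads, which recovered the counts behind the deposited values. In the 12 PDAC columns, values did not follow the gene column (Spearman's rho between row means of the 2 models was 0.10 over 15465 rows), so they were left out.

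The filter kept 14003 genes that reached 1 in 4 or more of the 8 BC libraries, and these were tested with limma 3.58.1 (R 4.3.3, trend) on log2(value + 1), lung metastasis against primary tumour, with Benjamini-Hochberg adjustment over all of them. The same limma fit was also run on simulated reads, and its outcome is not given here. Alternatives were pseudocounts of 0.1 and 5, no filter, a minimum of 5, median-ratio and plain per-million scaling, array weights, the mouse as a replicate block, each library left out, and edgeR 4.0.16 and DESeq2 1.42.0 on the recovered counts. Alternatives for Cdh2 with no filter, and all those for the partner genes, were added after seeing the data. The members, the lists and the rule for naming genes (all members, called partners, the partner with the smallest p in each role, and the 3 genes with the highest r for members that were called or did not overlap) were chosen with earlier results of these data known. Replicate numbers pair the tumours of 1 animal, because each title gives the mouse and the design text speaks of matched tumours. Deviations from the group means of same-mouse libraries correlated at 0.10, -0.15, 0.03 and 0.01. No batch is named in the labels used. Floors of 3 reads cover counting error only, since reads carry no molecular identifiers.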

Additional observations from a re-analysis of the deposited data

Results flagged for a closer look

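Of 18 groups of 4 values examined over 9 transition genes, 1 stood out: the Snai1 value of the primary tumour of mouse 4, at 19.1 normalised reads, lay far from the other primary tumours, which were at 28.3, 27.3 and 28.8, and inside the lung metastases. The measure used flags about 1 in 20 groups by chance, so 1 of 18 is near what chance gives.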

How the results depend on the processing

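Snai2, Twist2 and Cdh2 rest on few reads. Across all genes, 1279 were called, 1112 with the mouse as a replicate block, 2283 with array weights, 1985 in DESeq2, and 563 to 1155 with 1 library left out. The lowest of these counts came without the lung metastasis of mouse 1 (563) or 2 (651) and without the primary tumour of mouse 1 (839), 3 (842) or 4 (697). Calls lower in lung metastases numbered 274, 176 with the replicate block, 747 with array weights and 77 (without the primary tumour of mouse 4) to 370 (without the lung metastasis of mouse 3) with 1 library left out, so the share called lower beside Twist2 moves with the setting.

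Of the transition genes, 1 was called, and leaving out 1 library gave 0 to 1. The count was 2 with array weights and 2 in DESeq2, where Fn1 joined Twist2. It was 0 with a pseudocount of 0.1 or of 5, with the replicate block and in edgeR, where 4, 4, 3 and 4 of 8 genes had an unadjusted limma or edgeR p under 0.05. It was also 0 with a minimum of 5, where 3 of 6 genes did and Twist2 was not in the fit. Each gene kept its direction under every alternative run for it, except Vim, which was 0.02 without the lung metastasis of mouse 3 (range -0.50 to 0.02 with 1 library left out). Groups lay apart for 3 of the 8 tested genes under both scalings compared, and for Cdh2, outside the main test, as deposited. With median-ratio scaling Cdh2 reached the filter and was not called (log2 change 1.11, adjusted p = 0.0874). The Cdh2 to Cdh1 log2 ratio difference was 1.30 with a pseudocount of 0.1. The replicate block ended the calls of Twist2 and Cdh11 and changed no other call among the transition genes and the partner genes named. The median of all genes moved between -0.070 and -0.014 with the scaling. The cause of these differences was not tested.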
